A study of Mus musculus with 20 samples.

Results

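The 10 genes described here encode UDP-glycosyltransferases of mouse liver: Ugt1a1 and Ugt1a6a of the Ugt1a subfamily, Ugt2b1, Ugt2b5, Ugt2b34, Ugt2b35, Ugt2b36 and Ugt2b38 of the Ugt2b subfamily, and Ugt3a1 and Ugt3a2 of the Ugt3a subfamily. They were taken by symbol from a liver table of 24968 gene symbols, which holds 21 symbols of the superfamily in all, so that 11 further Ugt genes served only for comparison. The study sequenced 20 mouse RNA libraries, 14 from whole liver and 6 from the macrophage-like line RAW264.7. Mice had been fed an alcohol diet or its control for 6 weeks, and per the labels all were male. In WT liver there were 4 libraries on each diet. In liver labelled RageΔMye (spelled Rage{delta}Mye in the labels), a genotype named for loss of Rage, the receptor encoded by Ager, in myeloid cells, there were 3 libraries on each diet. The sources used here give no driver of a recombinase, no strain and no age. In RAW264.7, 3 libraries came from cells kept with BSA and 3 from cells treated with the complex of [O] HMGB1 plus IL1β, each over 6 hours. Nothing in the labels says that libraries of a group came from separate animals, so p-values measure only the spread between these libraries.

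UDP-glucuronosyltransferases sit in the endoplasmic reticulum and join a sugar from a nucleotide sugar donor to small fat-soluble molecules, which become water-soluble and leave the hepatocyte by transporters into bile or blood. Ugt1a and Ugt2b enzymes use UDP-glucuronic acid, and between them handle bilirubin, phenols, steroids, bile acids and many drugs. The human counterparts of the Ugt3a enzymes use other donors, UDP-N-acetylglucosamine for UGT3A1 and UDP-glucose or UDP-xylose for UGT3A2. Several of these genes differ between the sexes in mouse liver: Ugt2b1 and Ugt2b38 have been described as male-predominant, and Ugt1a1 and Ugt1a5 as female-predominant.

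In the GRCm38 build with GENCODE annotation, the Ugt1a members lie on chromosome 1, where Ugt1a1 spans chr1:88211959-88218997 and Ugt1a6a spans chr1:88134809-88218997, both on the plus strand. All Ugt1a genes of the locus end in the same exons. Each adds a first exon of its own, so a read from the common exons cannot be given to 1 of them. Of the 50-base stretches of the annotated transcripts, 58.2% of those of Ugt1a1 and 52.1% of those of Ugt1a6a recur in another Ugt gene. The exons of both also overlap Gm20528 on the opposite strand, which was not analysed here. The Ugt2b members are separate genes in a cluster on chromosome 5, from Ugt2b34 at chr5:86889767-86906937 through Ugt2b1 (chr5:86916638-86926530), Ugt2b35 (chr5:87000860-87013275), Ugt2b36 (chr5:87065927-87092555) and Ugt2b5 (chr5:87124960-87140318) to Ugt2b38 at chr5:87409942-87424203. Ugt2b35 is on the plus strand and the other Ugt2b members are on the minus strand. Ugt2b5 and Ugt2b38 share 34.8% of the 50-base stretches of Ugt2b5, whereas Ugt2b1 shares none with another Ugt gene. Ugt3a1 (chr15:9276888-9315032) and Ugt3a2 (chr15:9335550-9370955) are neighbours on the plus strand of chromosome 15. Values of Ugt1a1, Ugt1a6a, Ugt2b5 and Ugt2b38 are therefore uncertain in so far as the authors' counting split shared reads.

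The 100 bases before the annotated start are shown for 5 Ugt2b members, so that members called and not called for diet below can be set side by side. They are RefSeq promoters of GRCm38.p6, found for 9 of the 10 members, and each is printed on its gene's own strand. The start meant here is the RefSeq start, from which all distances below are counted. For Ugt2b1 and Ugt2b5 it differs from the start in the GENCODE spans above, and the Ugt2b1 stretch reaches into that span. Capitals mark matches to AGGTCA, a half-site of nuclear receptors, searched on both strands. The positions are chr5:87424204-87424303 for Ugt2b38, chr5:87140341-87140440 for Ugt2b5, chr5:87092556-87092655 for Ugt2b36, chr5:86926504-86926603 for Ugt2b1 and chr5:86906938-86907037 for Ugt2b34.
Ugt2b38: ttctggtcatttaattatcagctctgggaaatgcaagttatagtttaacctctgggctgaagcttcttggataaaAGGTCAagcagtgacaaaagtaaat
Ugt2b5: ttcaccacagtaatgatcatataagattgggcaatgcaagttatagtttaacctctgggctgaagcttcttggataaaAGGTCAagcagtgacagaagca
Ugt2b36: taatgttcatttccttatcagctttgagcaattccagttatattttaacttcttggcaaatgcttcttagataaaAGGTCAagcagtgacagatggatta
Ugt2b1: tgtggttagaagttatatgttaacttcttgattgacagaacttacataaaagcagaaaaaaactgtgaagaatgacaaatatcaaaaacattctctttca
Ugt2b34: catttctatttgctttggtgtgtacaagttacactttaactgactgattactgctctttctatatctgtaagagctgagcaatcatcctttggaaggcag

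Over these 100 bases, Ugt2b5 and Ugt2b38 were 80.8% identical, Ugt2b36 and Ugt2b38 77.0%, and Ugt2b5 and Ugt2b36 70.2%. The other pairs of members ran from 38.9% to 59.4%. AGGTCA began 22 bases before the start in Ugt2b5 and 25 bases before it in Ugt2b36 and Ugt2b38. Within 250 bases before the start it was also found in Ugt2b35, 215 bases away, and in 4607 of 32851 RefSeq promoters of the same length. A match to the STAT5 motif TTCNNNGAA, present in 7.02% of promoters, was found in Ugt1a6a 121 bases before the start. The xenobiotic response element core GCGTG (28.2% of promoters) and the antioxidant response element TGACNNNGC (10.2%) were found in no member. Both strands were searched for each motif. A match describes the letters and is not a measured binding site.

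Values are in TPM, a relative abundance with the same total in every library, and are scaled by transcript length and so allow levels of different genes to be compared. Read depth is unknown, since TPM keeps none. Some properties of the libraries bear on all that follows. In WT, the 4 alcohol libraries had Xist at 17.8 to 27.3 TPM and a sum of 4 Y-linked genes of 0 to 0.0161 TPM. The controls had 0.00165 to 0.135 TPM and 11.3 to 16.6 TPM. The WT alcohol libraries thus went against the male label, with a female pattern of these transcripts, while the WT controls had a male one. In WT the diet therefore cannot be told apart from sex. Ager went against the genotype label, with 0.0194 to 0.478 TPM in WT libraries and 93.1 to 166 TPM in the libraries labelled RageΔMye. The sources used here do not say whether both sets were counted with the same strand setting, on which the meaning of every value labelled RageΔMye depends. Between 15109 and 15595 genes were above 0 in WT libraries and between 7592 and 8499 in the others, so a 0 in a library labelled RageΔMye is given only as listed at 0. Hepatocyte markers marked all 14 libraries as liver (summed TPM 147809 to 192600 in WT, 51100 to 69970 labelled RageΔMye), and of 5 kidney proximal tubule markers Slc34a1, Kap and Slc22a6 were at 0 in all 6 libraries labelled RageΔMye while Slc5a2 stood at 740.1 to 991 TPM, and at 387 to 577 TPM in RAW264.7.

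In WT liver on the control diet, Ugt2b5 and Ugt3a2 had the highest levels of the 10 genes. The order of medians was Ugt2b5 (255 TPM), Ugt3a2 (216), Ugt2b36 (116), Ugt1a1 (108), Ugt2b1 (106), Ugt2b34 (85.0), Ugt3a1 (58.3), Ugt1a6a (20.3), Ugt2b38 (3.50 TPM) and Ugt2b35 (0.782 TPM). The libraries of Ugt2b5 overlapped those of Ugt3a2, and neighbours from Ugt2b36 to Ugt2b34 overlapped each other. At every other step in this order the ranges of the 4 libraries did not overlap, though Ugt2b34 (lowest 75.1 TPM) came close to Ugt3a1 (highest 74.0 TPM). On the alcohol diet Ugt3a2 stood first at a median of 175 TPM, apart from Ugt2b5 (131) and Ugt1a1 (128), which overlapped. Ugt2b34 (87.6) and Ugt2b36 (82.9) overlapped next, then Ugt3a1 (45.0) and Ugt2b1 (43.5), with Ugt1a6a (12.3), Ugt2b35 (0.529) and Ugt2b38 (0.0116 TPM) apart below them. By medians alone, Ugt2b1 thus moved from place 5 to place 7 and Ugt1a1 from place 4 to place 3. Places among overlapping genes are loose, since Ugt1a1 was above Ugt2b1 in only 1 of the 4 control libraries.

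**Figure D1:**
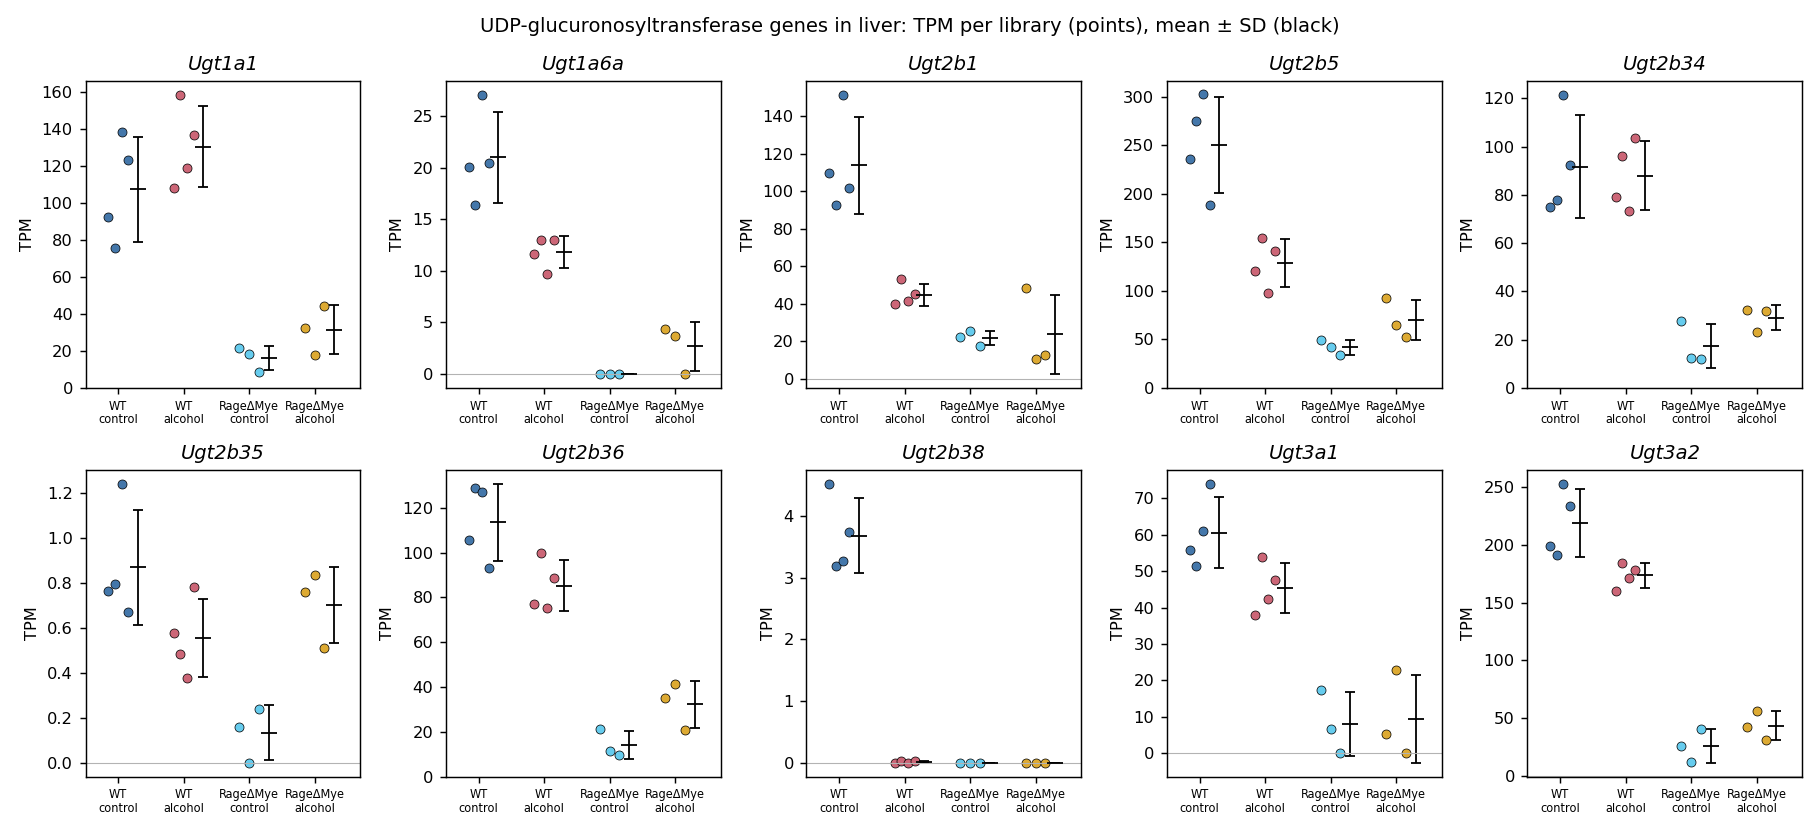
TPM (linear axis, separate for each gene) of the 10 genes in the 14 liver libraries. Each point is 1 library, and the black bar and whiskers are the mean ± SD of the group. The WT alcohol libraries lie below all WT controls for Ugt1a6a, Ugt2b1, Ugt2b5, Ugt2b38 and Ugt3a2, and levels labelled RageΔMye are lower than WT controls for all 10 genes by their means.

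The diet comparison in WT liver asked which of these genes changed with alcohol feeding. Of the 10 genes, 9 reached the expression filter (a group mean of 1 TPM or more) and 4 of them were lower on alcohol at an adjusted p under 0.05: Ugt2b38, Ugt2b1, Ugt2b5 and Ugt1a6a. None was higher. Among all 9744 genes tested, 31.2% were called, 17.9% lower and 13.3% higher. At an unadjusted p under 0.05 stood 7 of the 9, all lower, and 43.0% of all genes; 1 of the 9 differences was above 0, and 45.2% of all. Ugt2b38 passed the filter only through the control group, so its place among the tested genes and its direction are not independent. The median log2 difference of the 9 was -0.41, against -0.05 over all genes tested. The count was 7 when TPM was rescaled without the major urinary protein (Mup) genes, which held 7.26 to 10.9% of TPM in WT controls and 0.177 to 0.251% on alcohol, and 2 in a joint fit of all 14 libraries. That rescaling moved the median of all genes to -0.17.

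The Ugt2b subfamily, whose enzymes act on steroids, bile acids and many drugs, held 3 of the 4 called genes and 5 of the 9 tested. Of the 2 Ugt1a members tested 1 was called, and of the 2 Ugt3a members none. Ugt2b1 stood at 109.8, 92.5, 151 and 102 TPM on the control diet, against 39.8, 53.1, 41.6 and 45.5 TPM with alcohol. Every alcohol library lay below every control, and the highest alcohol value was well under the lowest control value. Ugt2b1 fell by 1.30 on the log2(TPM + 1) scale (SE 0.161, 95% interval -1.66 to -0.95, limma adjusted p = 0.000362), or 2.47-fold. In the joint fit, which shares 1 estimate of the spread among all liver libraries, its adjusted p was 0.109.

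Ugt2b5, the member with the highest control median, had 235, 275, 303 and 188 TPM on the control diet and 121, 154, 97.6 and 141 TPM on alcohol. The groups did not overlap, and the means were 250.4 ± 49.8 TPM and 128 ± 24.7 TPM (SD, n = 4 each). It fell by 0.96 on the log2 scale (SE 0.179, adjusted p = 0.00349), 1.94-fold. Ugt2b38, with which it shares transcript sequence and the promoter similarity above, was far less abundant: 4.52, 3.18, 3.27 and 3.73 TPM in controls and 0, 0.0293, 0 and 0.0232 TPM on alcohol. It was thus close to 0 in every alcohol library and at 0 in 2 of them. The fitted difference was -2.20 (SE 0.112, adjusted p = 5.24e-07), a value that depends on the added 1 TPM and understates the ratio of the means.

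The other Ugt2b members did not pass. Ugt2b36, the third gene with AGGTCA close to its start, had 105, 129, 127 and 93.1 TPM in controls and 77.1, 99.97, 75.1 and 88.6 TPM on alcohol. Its groups overlapped by 1 library on each side, and its difference of -0.41 (95% interval -0.72 to -0.09) had an adjusted p of 0.0507. Ugt2b34, at the far end of the cluster next to Ugt2b1, had 75.1, 77.7, 122 and 92.3 TPM against 79.1, 96.0, 73.1 and 104 TPM. The libraries of the 2 diets were interleaved, and the difference of -0.05 had a 95% interval of -0.43 to 0.34 (adjusted p = 0.861). Its sign turned under 4 alternatives listed under the processing. Ugt2b35 stayed below the filter with 0.671 to 1.24 TPM in controls and 0.376 to 0.782 TPM on alcohol, and was not tested.

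The pair of Ugt1a members went different ways in WT. Ugt1a6a, which conjugates small planar phenols, had 20.1, 16.4, 27.0 and 20.4 TPM in controls and 11.7, 12.98, 9.72 and 13.02 TPM on alcohol. The groups did not overlap, and it fell by 0.76 on the log2 scale (SE 0.158, adjusted p = 0.00576), 1.70-fold. In the joint fit its adjusted p was 0.706. Ugt1a1, the bilirubin-conjugating enzyme, had 92.4, 75.9, 138 and 123 TPM in controls and 108, 159, 119 and 137 TPM on alcohol. The groups overlapped, with 2 controls above the lowest alcohol library, and the difference of 0.30 (95% interval -0.13 to 0.73) had an adjusted p of 0.261. The interval leaves room for a rise of more than 1.5-fold as well as for a small fall.

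Ugt1a6b, the neighbour that shares 79.6% of its 50-base stretches with Ugt1a6a, was the most abundant Ugt row. It had 493, 575, 560 and 437 TPM in controls and 606, 657, 577 and 705 TPM on alcohol, with a difference of 0.31 (adjusted p = 0.0785). The sum of both rows was 458 to 591 TPM in controls and 587 to 718 TPM on alcohol, and Ugt1a6a made up 2.77 to 4.61% of it in controls and 1.66 to 1.94% on alcohol. The fall of Ugt1a6a was therefore a fall of a small part of a pair whose sum was higher on alcohol, apart from 1 control library above the lowest alcohol library. Ugt1a5, another gene of the locus and one of those described as female-predominant, had 8.44, 14.1, 18.8 and 27.2 TPM in controls and 74.4, 51.7, 46.1 and 75.6 TPM on alcohol. It rose by 1.87 on the log2 scale (adjusted p = 0.00159) with no overlap, and was the 1 gene called among the 5 tested of the 12 listed other Ugt genes. None of those 5 was called lower. Ugt2a3, in the chromosome 5 cluster, differed by -0.28 (adjusted p = 0.151).

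The Ugt3a genes, whose human counterparts use other sugars, had lower values on alcohol without passing the test. Ugt3a2 had 199, 191, 253 and 233 TPM in controls and 160.1, 184, 171 and 179 TPM on alcohol. No alcohol library reached the lowest control, but the difference of -0.33 (95% interval -0.59 to -0.06) had an adjusted p of 0.0584. With Ugt3a2, 5 of the 9 tested genes had lower alcohol libraries with no overlap, where 18.4% of all genes tested did; none had higher ones, as 12.3% of all genes had. Ugt3a1 had 55.7, 51.5, 61.0 and 74.0 TPM against 37.8, 53.9, 42.4 and 47.6 TPM. A single alcohol library rose above the lowest control, and the difference of -0.41 had an adjusted p of 0.0589. Ugt2b36, Ugt3a1 and Ugt3a2 were the genes that joined the called ones without the Mup genes, with adjusted p-values of 0.015, 0.0136 and 0.011.

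**Figure D2:**
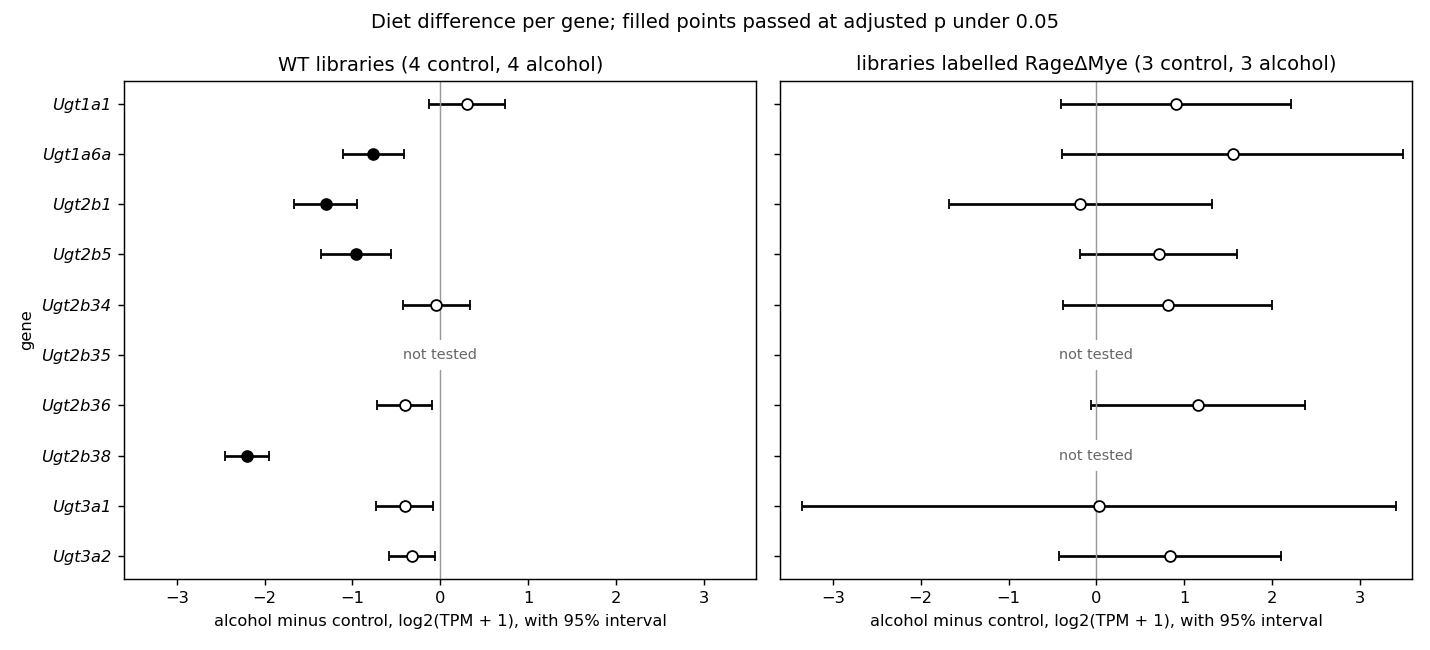
Difference between alcohol and control on the log2(TPM + 1) scale for each gene, with 95% intervals, in WT libraries (left) and libraries labelled RageΔMye (right). Filled points, at Ugt1a6a, Ugt2b1, Ugt2b5 and Ugt2b38 in WT, passed at an adjusted p under 0.05, and the intervals on the right are wider than those on the left for every gene tested in both.

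Summed by subfamily, the difference in WT was uneven. The Ugt2b members added up to 480.0 to 707 TPM in controls and 288 to 404 TPM on alcohol, and the Ugt3a members to 243 to 314 TPM and 198 to 238 TPM. The sum of the Ugt1a members, mostly Ugt1a1, was 92.3 to 166 TPM and 120 to 172 TPM. Neither the Ugt2b nor the Ugt3a sums overlapped between diets, while the Ugt1a sums did.

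All 10 genes together gave 898 to 1187 TPM in controls and 630 to 814 TPM on alcohol, with no overlap. The sum of all Ugt rows, which adds the abundant Ugt1a6b, did overlap, at 1484 to 1892 TPM in controls and 1335 to 1637 TPM on alcohol. Of the 10-gene sum, the 2 Ugt1a members held 10.1 to 15.4% in controls and 18.9 to 21.1% on alcohol. The Ugt2b members held 51.6 to 63.3% and 45.7 to 50.2%, and the Ugt3a members 26.4 to 33.0% and 29.3 to 33.9%. The Ugt1a and Ugt2b shares were thus apart between diets and the Ugt3a shares overlapped. These shares leave out Ugt1a6b, which alone held 29.5 to 35.4% of all Ugt rows in controls and 40.2 to 43.4% on alcohol. They are therefore no measure of the whole Ugt1a subfamily. Ratios within a library do not depend on how TPM is scaled. Ugt2b1 per Ugt1a1 was 0.828 to 1.22 in controls and 0.332 to 0.368 on alcohol, Ugt2b5 per Ugt1a1 was 1.53 to 3.62 and 0.821 to 1.12, and Ugt2b1 per Ugt2b34, its neighbour, was 1.10 to 1.46 and 0.439 to 0.569. None of these 3 ratios overlapped between diets, and none was tested. Taken per 1000 TPM of Alb, a hepatocyte transcript, the 10 genes gave 8.33 to 11.1 TPM in controls and 5.04 to 7.25 TPM on alcohol. In whole liver, fewer cells of a type and less RNA per cell cannot be told apart.

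**Figure D3:**
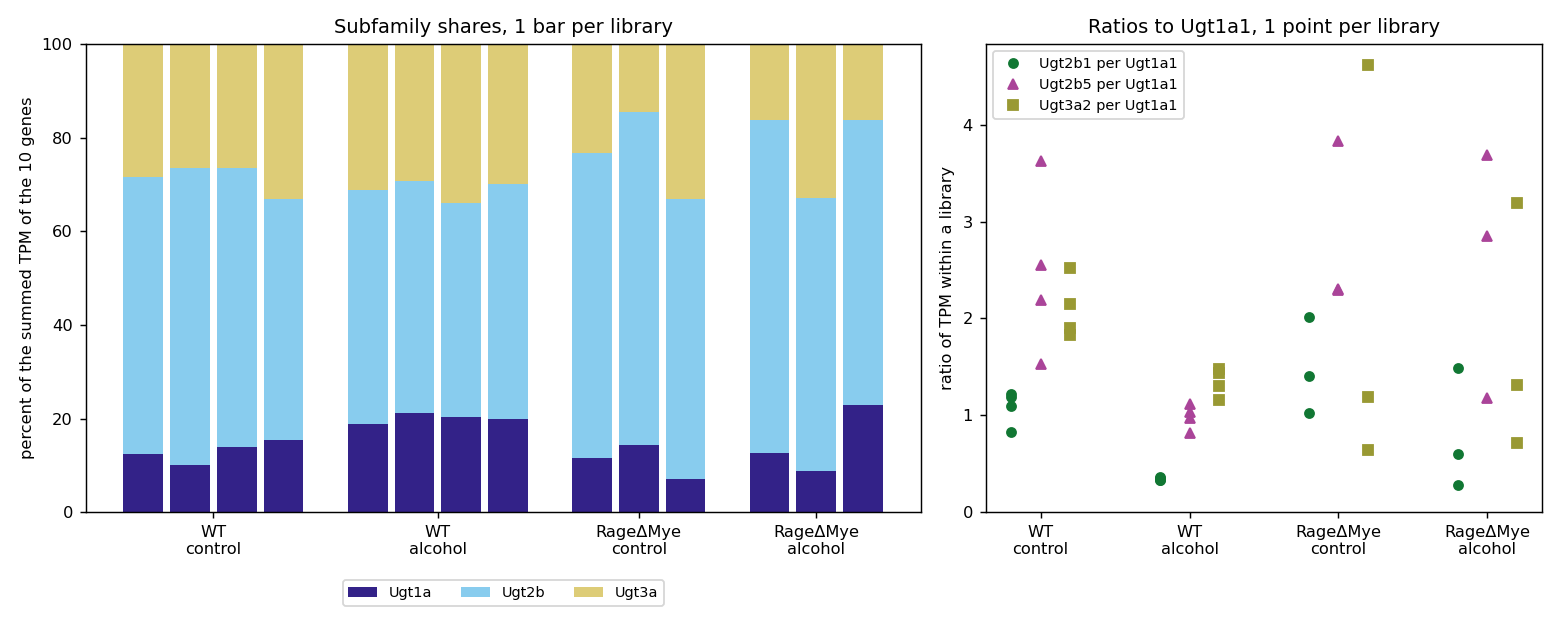
Left, share of the summed TPM of the 10 genes held by the members of each subfamily, 1 bar per library. Ugt1a6b, the most abundant Ugt row, is not among the 10 genes. Right, TPM of Ugt2b1, Ugt2b5 and Ugt3a2 divided by that of Ugt1a1 in the same library. The Ugt1a share in WT is 10.1 to 15.4% in controls and 18.9 to 21.1% on alcohol, and Ugt2b1 per Ugt1a1 drops from 0.828 to 1.22 to between 0.332 and 0.368.

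In the libraries labelled RageΔMye, no Ugt gene passed the test for diet. Of the 10 genes, 8 reached the filter, Ugt1a6a only through the alcohol group, and none was called by limma at an adjusted p under 0.05 or at an unadjusted p under 0.05. Among 10686 genes tested, 0.0374% were called at the adjusted threshold and 6.99% at the unadjusted one. The differences of 7 of the 8 were above 0, as were 50.3% of all genes tested, with a median of 0.82 for the 8 and 0.01 for all genes.

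Ugt2b5 was the tested member whose libraries did not overlap, with 49.7, 41.6 and 33.7 TPM in controls and 92.1, 65.0 and 52.2 TPM on alcohol. Its difference was 0.71 (95% interval -0.18 to 1.60, adjusted p = 0.72). Higher alcohol libraries with no overlap were found for 5.83% of all genes tested, and lower ones for 5.85% of all genes and for no member. The alcohol libraries of Ugt2b5 therefore stood above the controls here and below them in WT. Ugt2b36, its near match in promoter sequence, had 21.3, 11.5 and 9.65 TPM against 35.0, 41.2 and 20.8 TPM. Those groups overlapped by 1 library, and the difference of 1.16 had a 95% interval of -0.06 to 2.38 (adjusted p = 0.672). Ugt2b38 was listed at 0 in all 6 libraries and was not tested.

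Ugt2b1 differed by -0.18 (95% interval -1.68 to 1.31), with 22.2, 25.5 and 17.7 TPM in controls and 48.2, 10.7 and 12.6 TPM on alcohol. Its alcohol libraries lay on both sides of the controls. Ugt2b34 had 27.7, 12.2 and 11.8 TPM in controls and 32.2, 23.0 and 32.0 TPM on alcohol, a difference of 0.81 (95% interval -0.38 to 2.00). Ugt2b35, under the filter, had 0.157, 0 and 0.241 TPM in controls and 0.758, 0.834 and 0.513 TPM on alcohol, all 3 above the controls at levels under 1 TPM.

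Ugt1a1 had 21.6, 18.2 and 8.79 TPM in controls and 32.3, 17.6 and 44.2 TPM on alcohol. The difference of 0.91 had a 95% interval of -0.40 to 2.22, and 1 alcohol library lay below 2 of the controls. Ugt1a6a was listed at 0 in all 3 controls and had 4.38, 3.67 and 0 TPM on alcohol. Its abundant neighbour Ugt1a6b had 147, 143 and 141 TPM in controls and 304, 337 and 235 TPM on alcohol, a difference of 1.00 with an adjusted p of 0.323. Every alcohol library of Ugt1a6b was above every control in both genotypes, yet it passed at the adjusted threshold in neither.

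Of the Ugt3a genes, Ugt3a1 had the widest interval of the 8 tested members. Ugt3a2 had 25.8, 11.8 and 40.6 TPM in controls and 42.4, 56.3 and 31.5 TPM on alcohol, a difference of 0.84 (95% interval -0.43 to 2.10). Ugt3a1 had 17.5, 6.69 and 0 TPM and 5.37, 22.9 and 0 TPM, a difference of 0.03 with a 95% interval of -3.35 to 3.42. The interval covers a change of more than 8-fold either way, so the data set hardly any limit on Ugt3a1 here. The 10 genes added up to 122 to 186 TPM in controls and 194 to 293 TPM on alcohol, without overlap, and per 1000 TPM of Alb to 4.61 to 6.45 TPM and 8.88 to 12.8 TPM. The Ugt1a members held 7.18 to 14.3% of the 10-gene sum in controls and 8.84 to 22.8% on alcohol. For the Ugt2b members it was 59.7 to 71.3% and 58.3 to 71.1%, so neither share was apart between diets. Ugt1a6b is again left out of these shares.

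The difference between the diet effects of the genotypes was tested in all 14 libraries, with weights that let each genotype have its own spread. Since the WT diets also differed in Xist and the Y-linked genes, this contrast does not compare diet alone. None of the 9 members tested passed, where 0.506% of 12066 genes did. At an unadjusted p under 0.05, reached by 8.50% of all genes, stood Ugt2b38 (2.20 on the log2 scale, adjusted p = 0.151) and Ugt1a6a (2.31, adjusted p = 0.488). Both had libraries listed at 0 in the group labelled RageΔMye. For Ugt2b5 the effects differed by 1.66 (95% interval -0.46 to 3.79, adjusted p = 0.712), and the joint fit without weights gave an adjusted p of 0.02. Since Ugt2b38 was listed at 0 in all 6 libraries labelled RageΔMye, its value is the WT difference with the sign turned and shows no difference of diet effects. On simulated data this contrast made false calls more often than its threshold allows, so a single call from it carries little weight. For Ugt2b1 the difference was 1.12 with a 95% interval of -0.91 to 3.15, so a fall as large as in WT was not told apart from none.

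Levels of the 10 genes were lower in the libraries labelled RageΔMye than in WT on both diets by their means, except Ugt2b35 on the alcohol diet (0.702 against 0.554 TPM). These levels were not tested between genotypes, since fewer genes were above 0 and the hepatocyte marker sum was lower in the same libraries, and the genotype cannot be told apart from those properties. In RAW264.7 cells, 8 of the 10 genes were at 0 in all 6 libraries. Ugt2b1 was found in 1 BSA library (3.88 TPM) and Ugt3a1 in 1 library given the complex (3.81 TPM), and no comparison was made.

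Genes that feed or follow glucuronidation were read from lists of related genes, each against the 17.9% lower and 13.3% higher of all genes in WT. Of the called genes named from these lists, Hk1, Abcc4, Cux2 and Sult3a1 reached the filter only through the alcohol group and Slco1a1 only through the controls, so their being tested and their direction are tied. In the supply of the donor UDP-glucuronic acid, 2 of 16 tested genes were higher on alcohol and none lower. These were Pgm1, a phosphoglucomutase (1.20 ± 0.296 TPM in controls, 2.31 ± 0.231 TPM on alcohol, SD, n = 4 each), and Hk1, a hexokinase (0.606 ± 0.257 and 1.31 ± 0.103 TPM). Ugdh, which makes UDP-glucuronic acid from UDP-glucose, had means of 29.6 and 22.2 TPM and an adjusted p of 0.111.

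Among transporters of glucuronides and bilirubin, 2 of 11 tested were higher and 2 lower. Slco1a1, an uptake transporter of organic anions described as male-predominant in mouse liver, fell by 4.59 on the log2 scale, from 29.3 ± 10.2 TPM to 0.221 ± 0.230 TPM (adjusted p = 4.11e-07). Abcg2, an efflux transporter of the bile canaliculus, fell by 1.61 (69.5 ± 9.27 to 22.0 ± 2.63 TPM, adjusted p = 1.65e-05). Slco1a4 rose by 1.56 (9.02 ± 3.38 to 27.7 ± 5.82 TPM) and Abcc4, which exports conjugates to blood, rose by 1.20 (0.561 ± 0.284 to 2.55 ± 0.269 TPM). Abcc2, the main canalicular exporter of bilirubin glucuronides, had means of 102 and 85.7 TPM (adjusted p = 0.668).

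Of the 5 genes that break haem down to bilirubin, the substrate of Ugt1a1, 2 were higher: Hmox1, the inducible haem oxygenase (31.5 ± 8.19 to 88.7 ± 11.4 TPM, adjusted p = 0.00036), and Por, its electron donor (328 ± 42.9 to 471 ± 56.1 TPM, adjusted p = 0.0144). Ugt1a1 itself did not pass, as given above. Of 17 tested transcription factors tied to Ugt genes, 4 were higher and 3 lower. Cux2, a factor known as female-specific in mouse liver, rose by 1.51 (0.0238 ± 0.00742 to 2.07 ± 1.18 TPM). Ahr, the dioxin receptor, and its partner Arnt rose by 0.81 and 0.68. Nr1i3, the receptor CAR, which induces Ugt1a1, fell by 0.50 (214 ± 41.8 to 150 ± 20.6 TPM, adjusted p = 0.0349).

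The list of sulfotransferases, the other large conjugating family, had 7 of 12 tested genes higher and 2 lower. It also held Papss1 and Papss2, which are not sulfotransferases, and both were among the 12 tested. Sult2a1 and Sult2a2, hydroxysteroid sulfotransferases known as female-predominant, rose by 8.11 and 8.42 on the log2 scale, from 1.32 ± 2.26 and 2.04 ± 3.57 TPM to 514 ± 202 and 719 ± 248 TPM. Sult3a1, likewise female-predominant, rose by 3.62, and Sult2a8 fell by 1.37 (138 ± 26.5 to 52.5 ± 7.77 TPM). These genes moved in the libraries in which Xist and the Y-linked genes differed, and the part of sex in the values of the Ugt genes and of these lists cannot be told apart from that of diet.

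In the libraries labelled RageΔMye, no gene of these lists passed. Abcc3, an exporter of glucuronides to blood, had 6.55 ± 4.71 TPM in controls and 58.0 ± 31.7 TPM on alcohol (SD, n = 3 each, adjusted p = 0.207), and Por had 39.2 ± 5.53 and 177 ± 34.9 TPM (adjusted p = 0.102). Blvrb, a biliverdin reductase, had 80.9 ± 59.1 and 404 ± 212 TPM (adjusted p = 0.393), and Bcl6, a repressor that opposes STAT5, had 27.2 ± 12.04 and 106 ± 2.23 TPM (adjusted p = 0.207). In the supply list, Akr1a1, an aldehyde reductase that uses glucuronate, had 47.2 ± 17.4 and 128 ± 37.8 TPM (adjusted p = 0.447). There the sum of the 4 Y-linked genes was 3.16 to 4.50 TPM in controls and 0.276 to 1.74 TPM on alcohol, and Xist 0 to 3.10 and 0.322 to 0.990 TPM.

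**Figure D4:**
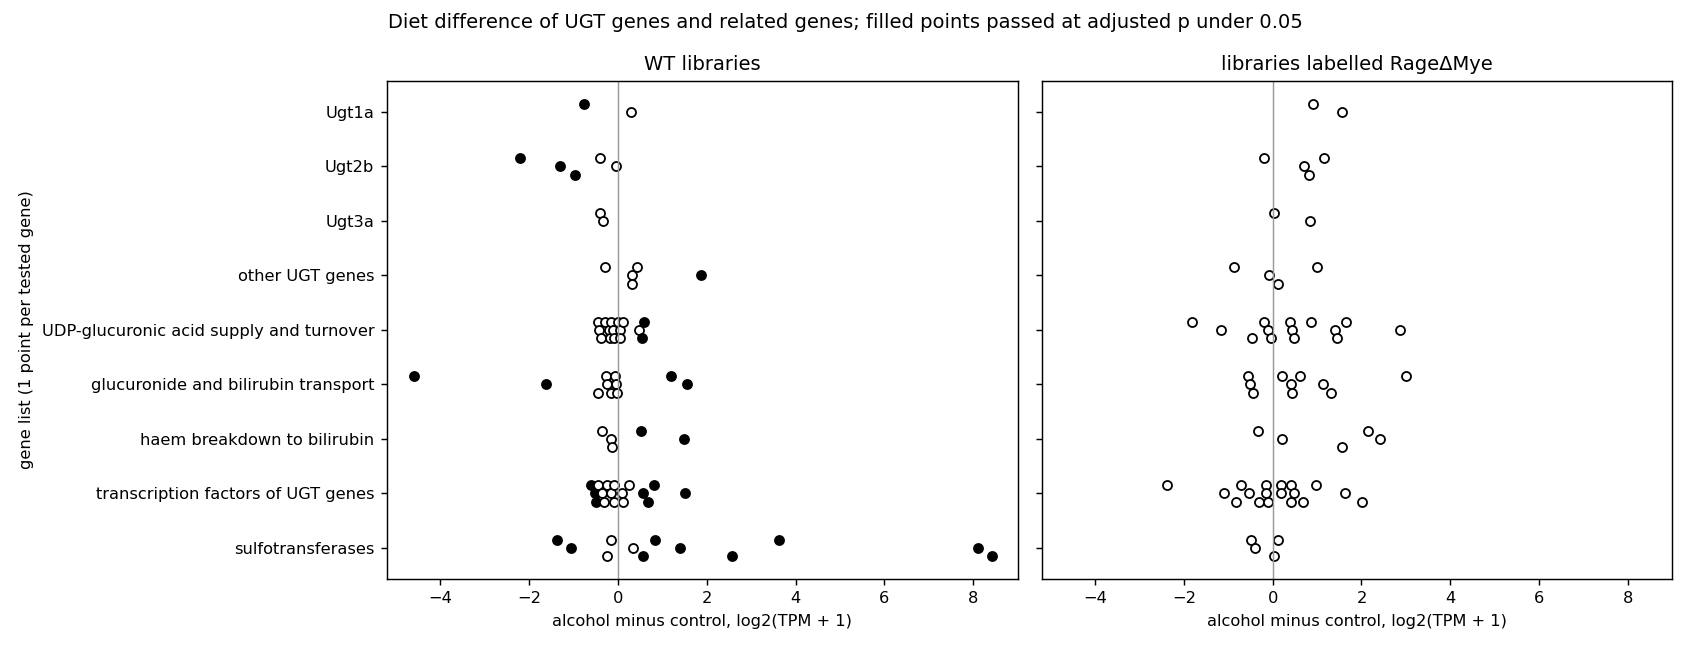
Difference between alcohol and control, log2(TPM + 1), for the Ugt genes by subfamily and for the lists of related genes, 1 point per tested gene, in WT (left) and libraries labelled RageΔMye (right). Filled points passed at an adjusted p under 0.05. In WT, 3 of 5 Ugt2b points are filled and lower. In the sulfotransferase list, which also holds Papss1 and Papss2, 9 of 12 points are filled in WT. No point is filled on the right.

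Markers of other liver cells were read beside the Ugt genes in WT, against the same 13.3% higher and 17.9% lower of all genes. Of the neutrophil and monocyte markers, 4 of 5 tested were higher (summed TPM 25.9 to 67.5 in controls, 93.5 to 136 on alcohol). Sinusoidal endothelial markers had 2 of 7 higher (61.8 to 165 and 93.0 to 213 TPM), stellate markers 2 of 5 higher (37.9 to 56.9 and 68.5 to 123 TPM), cholangiocyte markers 1 of 3 lower (28.7 to 81.7 and 45.5 to 145 TPM), and Kupffer cell and macrophage markers 0 of 9 (241 to 255 and 186 to 397 TPM). Hepatocyte markers had 3 of 10 higher and 2 lower. Their sum was 147809 to 171240 TPM in controls and 174494 to 192600 TPM on alcohol. Most of it was Alb (means 101574 and 120624 TPM), and among the others Fgb had a higher mean on alcohol and Serpina1c a lower one. The sum also depends on how TPM is scaled, so it is no measure of hepatocyte number. The part of any of these cell types in the differences of the Ugt genes was not tested.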

How the data were processed

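Stranded mRNA libraries were made from whole liver and RAW264.7 RNA, per the labels' protocols. The submitters' processing notes name mm10 as the build. How reads were aligned, counted and assigned to strands is not given in the sources used. The deposited tables name no unit. They were taken to be TPM from the authors' processing, since each column summed to between 999687 and 999995 over 24968 symbols. Of 24972 rows, 4 with repeated date-like symbols had been left out before summing.

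Groups came from the labels. Genes that averaged 1 TPM or more in 1 group of a fit were tested on log2(TPM + 1) with limma 3.58.1 (R 4.3.3, trend) and Benjamini-Hochberg adjustment over all genes tested, threshold 0.05, separately in WT (8 libraries) and RageΔMye (6 libraries), whose spreads differed. The interaction used all 14 libraries with weights per genotype. The code was tested on simulated data, where the interaction contrast made too many false calls. Alternatives were the pseudocount, the filter, the scaling, a joint fit, a stricter threshold, the replicate block and leaving out each library. Genes named from a list were up to 4 called genes with the smallest adjusted p per genotype or, where none was called, up to 2 with the smallest p; Ugdh, Abcc2, Nr1i3 and Ugt2a3 were added after their values were seen, and some listed genes and 1 motif are not reported here. The Ugt genes, the lists and the tests were chosen with earlier results of these data known. Replicate numbers did not pair the libraries. A planned comparison of protein sequences was replaced by shared 50-base stretches of GENCODE transcripts and by promoter identity (Biopython 1.88).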

Additional observations from a re-analysis of the deposited data

Results flagged for a closer look

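Ugt2b5 drew attention because every alcohol library lay below every control in WT liver and above every control in the libraries labelled RageΔMye. The WT diets also differed in Xist and the Y-linked genes, so the part of genotype in these opposite directions cannot be told apart from that of sex. The difference between the 2 diet effects was 1.66 on the log2(TPM + 1) scale (limma adjusted p = 0.712 with weights per genotype, 0.02 in the joint fit without them). The joint fit shares 1 estimate of the spread, while the spreads of the 2 genotypes differed. Of all genes tested, 18.4% lay lower without overlap in WT and 5.83% higher in the libraries labelled RageΔMye. How many genes did both was not counted, and Ugt2b5 was picked from 10 genes. Of 20 groups of 4 WT libraries, 2 for each of the 10 genes, none held a library far from the others by Dixon's criterion, which chance meets in about 1 of 20 groups.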

How the results depend on the processing

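In WT, 3040 genes were called. The count was 1879 with a filter at 5 TPM, 1446 at an adjusted p under 0.01, 336 in the joint fit and 2053 to 3467 with 1 library left out. The 1296 higher and 1744 lower became 954 and 2746 without the Mup genes. The 4 Ugt members called lower were 7 without the Mup genes, 3 with the filter at 5 TPM, which left out Ugt2b38, 2 in the joint fit (Ugt2b5 and Ugt2b38) and 4 to 6 with 1 library left out, the same 4 among them each time. Ugt2b34 turned to 0.015 under median scaling and, within -0.13 to 0.10 over the libraries left out, to 0.10, 0.000296 and 0.04 without WT control replicate 3, alcohol replicate 1 and alcohol replicate 3. Ugt2b36 passed without WT control replicate 4 (adjusted p = 0.0179) or alcohol replicate 2 (0.0392), Ugt3a1 without control replicate 2 (0.043) or alcohol replicate 2 (0.0428), and Ugt3a2 without control replicate 2 (0.0341).

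Labelled RageΔMye, 4 genes were called, 9 with a filter at 5 TPM, 7 under median scaling, 657 in the joint fit, 0 at an adjusted p under 0.01 and 0 to 5 with 1 library left out. With the replicate block 0 genes were called, 622 at an unadjusted p under 0.05, and the block changed no call of a Ugt member; correlations of same-numbered libraries were 0.02, -0.02 and -0.0001. None of the 8 Ugt members tested passed under any alternative run. With 1 library left out, Ugt2b1 ran from -0.84 to 0.20 (0.09 and 0.20 without alcohol replicates 3 and 2) and Ugt3a1 from -1.16 to 1.24 (-1.16, -0.09 and -1.05 without control replicate 3, alcohol replicate 1 and alcohol replicate 2).

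For the difference between genotypes, 61 genes were called, 128 with no filter, 463 in the joint fit, 18 at an adjusted p under 0.01 and 50 to 71 with 1 library left out. The count of Ugt members was 0, but 1 with no filter (Ugt2b38, adjusted p = 0.00347), 2 in the joint fit (Ugt2b5 and Ugt2b38) and 0 to 1 with 1 library left out (Ugt2b38 without WT control replicate 1, adjusted p = 0.0319). Ugt2b38 is listed at 0 in every library labelled RageΔMye, so its calls show no difference of diet effects. Ugt3a1 ran from -0.75 to 1.65, with -0.75 and -0.64 without RageΔMye control replicate 3 and alcohol replicate 2. The cause of these changes was not tested. Read depth is unknown, so no counting error is given.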
